A study of Homo sapiens with 8 samples.

Results

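Genes of the cilium, its axoneme and its transport machinery were followed in 2 human cell lines given a short hairpin RNA (shRNA) against the transcription factor GATA6. The list held 45 genes, and 44 of them were found by symbol among the 11963 genes with a named probe set on the array. BBS2 was not analysed here. Each gene was represented by the probe set with the highest mean over the 8 arrays. The list was drawn up around DRC9, DNAI7, EFHC2 and CFAP44, which were among the genes with the largest increases in HUG1N cells given the shRNA. The HUG1N shRNA values of the 44 genes are therefore a description of how the list was chosen, and no p-value is given for them.

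HUG1N is a human gastric cancer line, entered in the labels' cell line field as HuG-1, and Caco-2 is a human colorectal adenocarcinoma line. The groups were HUG1N cells with the GATA6 shRNA, HUG1N control cells, Caco-2 cells with the GATA6 shRNA and Caco-2 control cells, with 2 arrays in each. Per the labels' protocols, infected cells went through puromycin selection before harvest, and the samples labelled as control carry the same protocol text. The treatment of the control cells, the duration of selection and the number of cultures behind a group are left unsaid in the labels. A p-value here therefore reflects array-to-array spread within groups, and that spread could be purely technical. The hairpin is named only by its target, so effects outside GATA6 cannot be told apart from effects of GATA6.

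The deposited values are log2 expression values on Affymetrix human 3′ arrays, with a lowest value of 2.08 in every array. A log2 value of 4 is used here as the level below which a gene is treated as near that floor. A gene was tested with limma if it was over 4 in at least 2 arrays, and it is called higher or lower at an adjusted p under 0.05 over the 7696 genes tested. GATA6 had log2 values of 12.26 and 12.22 in HUG1N shRNA cells, against 12.54 and 12.45 in HUG1N control cells, a difference of -0.25 (SE 0.10) that was not called (limma adjusted p = 0.0879). In Caco-2 shRNA cells GATA6 was at 12.23 and 12.02, against 12.63 and 12.45 in Caco-2 control cells, a difference of -0.42 (SE 0.10, limma adjusted p = 0.0224). That call was lost with no low-value filter (limma adjusted p = 0.0562) and with the Caco-2 groups fitted alone (limma adjusted p = 0.0724). It was also lost without Caco-2 control replicate 1 (-0.32) and without Caco-2 shRNA replicate 2 (-0.31). The GATA6 probe set thus stayed at 12.02 or above in every array, and its protein was not measured here.

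Cilia are built on a basal body, a modified centriole, and are entered through a transition zone that controls which proteins pass. Intraflagellar transport (IFT) trains carry cargo along the axoneme, out with kinesin-2 and back with cytoplasmic dynein, and the BBSome and its partners sort membrane proteins. Primary cilia, which sense signals, lack dynein arms, whereas motile cilia and sperm flagella carry dynein arms, regulatory complexes and a central apparatus on the axoneme. FOXJ1 and the RFX factors are the known activators of this programme, and RFX factors bind the X-box, an inverted repeat.

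Promoter sequences are shown for the genes that led the list and for the axoneme genes whose promoters held the letter pair searched for. RefSeq promoters on GRCh38.p14 were matched for 36 of the 44 genes, with 45 promoters, since some genes have more than 1 start. The 250 bases before each start were searched for the X-box arm GTTNCC on either strand, and for the pair GTTNCC and GGNAAC separated by at most 3 bases. The arm is part of the pair, and the pair is its own reverse complement. Capitals mark arms and pairs, read 5′ to 3′ on the gene's strand. The DRC9 window is chr3:197949926-197950175 (minus strand), that of DNAI7 is chr12:25195161-25195410 (minus strand), and that of EFHC2 is chrX:44343673-44343922 (minus strand). The CFAP44 window is chr3:113441494-113441743 (minus strand), that of DRC4 is chr16:90022430-90022679 (plus strand), and that of SPAG16 is chr2:213284214-213284463 (plus strand).
DRC9: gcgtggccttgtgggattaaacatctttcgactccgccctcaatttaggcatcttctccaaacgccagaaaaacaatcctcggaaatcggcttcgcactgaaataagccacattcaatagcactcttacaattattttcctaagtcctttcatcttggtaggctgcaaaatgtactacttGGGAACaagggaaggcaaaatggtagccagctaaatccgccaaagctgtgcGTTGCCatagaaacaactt
DNAI7: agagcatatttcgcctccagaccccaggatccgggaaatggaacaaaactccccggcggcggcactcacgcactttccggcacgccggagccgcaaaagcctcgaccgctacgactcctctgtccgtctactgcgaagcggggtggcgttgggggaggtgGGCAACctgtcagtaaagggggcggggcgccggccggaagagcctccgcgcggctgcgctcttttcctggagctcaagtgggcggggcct
EFHC2: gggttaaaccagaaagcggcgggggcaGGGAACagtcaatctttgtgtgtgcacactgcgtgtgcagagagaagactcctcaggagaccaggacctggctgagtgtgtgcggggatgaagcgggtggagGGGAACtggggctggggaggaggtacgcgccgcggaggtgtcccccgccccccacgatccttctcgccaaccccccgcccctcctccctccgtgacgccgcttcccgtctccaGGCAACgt
CFAP44: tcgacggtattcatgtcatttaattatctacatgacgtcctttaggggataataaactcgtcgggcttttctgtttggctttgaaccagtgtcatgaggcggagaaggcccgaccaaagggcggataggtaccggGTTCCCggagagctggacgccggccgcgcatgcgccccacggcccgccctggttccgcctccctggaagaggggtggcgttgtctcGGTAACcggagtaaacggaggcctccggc
DRC4: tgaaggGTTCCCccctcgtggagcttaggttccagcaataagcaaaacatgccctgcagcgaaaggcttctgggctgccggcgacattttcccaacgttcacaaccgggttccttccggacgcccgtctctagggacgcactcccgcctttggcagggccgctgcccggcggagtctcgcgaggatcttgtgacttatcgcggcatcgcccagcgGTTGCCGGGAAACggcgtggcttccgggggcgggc
SPAG16: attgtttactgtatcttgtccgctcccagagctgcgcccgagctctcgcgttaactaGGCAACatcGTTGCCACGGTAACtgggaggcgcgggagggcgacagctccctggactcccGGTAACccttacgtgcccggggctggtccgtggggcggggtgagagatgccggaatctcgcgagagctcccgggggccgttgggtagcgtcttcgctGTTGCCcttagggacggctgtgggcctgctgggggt

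A full pair was found in 2 of the 45 member promoters (4.44%) and in 0.655% of all 35116 promoters. In DRC4, a subunit of the nexin-dynein regulatory complex, the 13-base pair GTTGCCGGGAAAC began 35 bases before the start. SPAG16, a protein of the central apparatus, held the 14-base pair GTTGCCACGGTAAC beginning 184 bases before the start. The promoters printed for DRC9, DNAI7, EFHC2 and CFAP44 held arms and no pair. An arm was found in 30 of the 45 member promoters (66.7%), against 39.7% of all promoters. Among axoneme genes it was found in 12 of 15 promoters (80%), and among the other members in 18 of 30 (60%). The forkhead core GTAAACA, searched on both strands, was in 4.44% of member promoters and 2.98% of all, and the GATA site AGATAA in 8.89% of member promoters and 9.17% of all. These counts take no account of base composition, and a match of letters is not a bound site. Inverted repeats with other letters were not searched for, so a promoter without the pair may still hold an X-box.

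Dynein and axoneme genes were the members with the widest range between groups. Of 15 on the array, 10 were over log2 4 in both HUG1N shRNA arrays, against 6 in both HUG1N control arrays, 3 in both Caco-2 shRNA arrays and 3 in both Caco-2 control arrays. In HUG1N cells 7 of the 11 tested axoneme genes were called higher with the shRNA and 1 lower, beside 24.7% of all tested genes called higher and 23.9% called lower. The 7 include DRC9, DNAI7, EFHC2 and CFAP44, around which the list was drawn up. DRC9, EFHC2, CFAP44, TEKT2 and DNAH7 passed the filter only through the HUG1N shRNA arrays, so nothing is read from this count. In bulk RNA, a change in the share of cells that express a gene and a change in RNA per cell cannot be told apart.

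DRC9, also a subunit of the nexin-dynein regulatory complex, had log2 values of 7.73 and 7.53 in HUG1N shRNA cells, against 2.54 and 2.29 in HUG1N control cells. All 4 Caco-2 arrays were at 2.08. The HUG1N difference was 5.22 (SE 0.11), and since no control array reached 4 it is given as at least 12.4-fold higher, the mean of the brighter group set against log2 4. Only the HUG1N shRNA arrays thus held DRC9 above the floor region, and the groups were far apart.

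DNAI7, named as an axonemal dynein intermediate chain in the current nomenclature, had 13.69 and 13.97 in HUG1N shRNA cells, against 9.22 and 9.78 in HUG1N control cells. The difference was 4.33 (SE 0.19), or 20.1-fold. Caco-2 shRNA cells had 2.31 and 2.36 and Caco-2 control cells 2.14 and 2.15. DNAI7 was thus well above the floor in HUG1N cells with and without the shRNA and at the floor in Caco-2 cells.

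EFHC2, an EF-hand protein of the inner face of the axonemal microtubules, had 7.02 and 7.22 in HUG1N shRNA cells, against 2.09 and 3.90 in HUG1N control cells. The control arrays of EFHC2 lay far apart from each other, and the difference of 4.12 (SE 0.52) is given as at least 8.68-fold higher. Its other probe set was at 2.08 in all 8 arrays, so the increase was seen on 1 of its 2 probe sets. CFAP44, a protein needed for the sperm flagellum, had 5.24 and 6.64 in HUG1N shRNA cells, against 2.09 and 2.09 in HUG1N control cells. Here the shRNA arrays were the spread ones, and the difference was 3.85 (SE 0.40), at least 3.84-fold higher. Both genes were at 2.08 or 2.09 in every Caco-2 array.

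TEKT2, a tektin filament protein of the doublet microtubules, had 6.61 and 6.93 in HUG1N shRNA cells, against 3.19 and 3.42 in HUG1N control cells, at least 6.83-fold higher. DNAH7, an inner-arm dynein heavy chain, had 5.05 and 4.60 in HUG1N shRNA cells and 2.08 in all other arrays, at least 1.77-fold higher. DNALI1, a light intermediate chain of inner-arm dynein, had 8.57 and 8.30 in HUG1N shRNA cells, against 6.45 and 6.28 in HUG1N control cells, a difference of 2.07 (SE 0.11) or 4.21-fold. DNALI1 and DNAI7 were the members of the called axoneme genes that were already over log2 4 in HUG1N control cells and then higher with the shRNA.

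The remaining axoneme genes did not share that pattern. SPAG16 had 9.67 and 9.73 in HUG1N shRNA cells, against 10.09 and 10.04 in HUG1N control cells, and was the axoneme gene called lower there (-0.36, SE 0.07). DRC4 had 6.35 and 6.80 in HUG1N shRNA cells, against 7.01 and 7.38 in HUG1N control cells (-0.62, SE 0.23), and was called only with a replicate block or a trended, robust variance model. TPPP3, a tubulin-binding protein found in ciliated cells, had 3.91 and 4.18 in HUG1N shRNA cells, against 4.26 and 4.64 in HUG1N control cells (-0.41, SE 0.15), and was called lower only without HUG1N control replicate 1 (-0.60) or with the replicate number as a block. Among the 36 members with a matched promoter, DRC4 and SPAG16 are those with the letter pair searched for. Other forms of the X-box were not searched for in any member. TEKT2, DNAH3 and TPPP3 had no promoter to search, and a link between the pair and these values was not tested. DNAH3, another inner-arm heavy chain, lay between 5.87 and 6.27 in all 8 arrays on a probe set of the type that can match other transcripts, and its other 2 probe sets stayed at or below 2.36. The outer-arm genes DNAH9, DNAI1 and DNAI2 and the central apparatus gene SPAG6 stayed at or below 2.09 in all 8 arrays and were not tested.

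**Figure D1:**
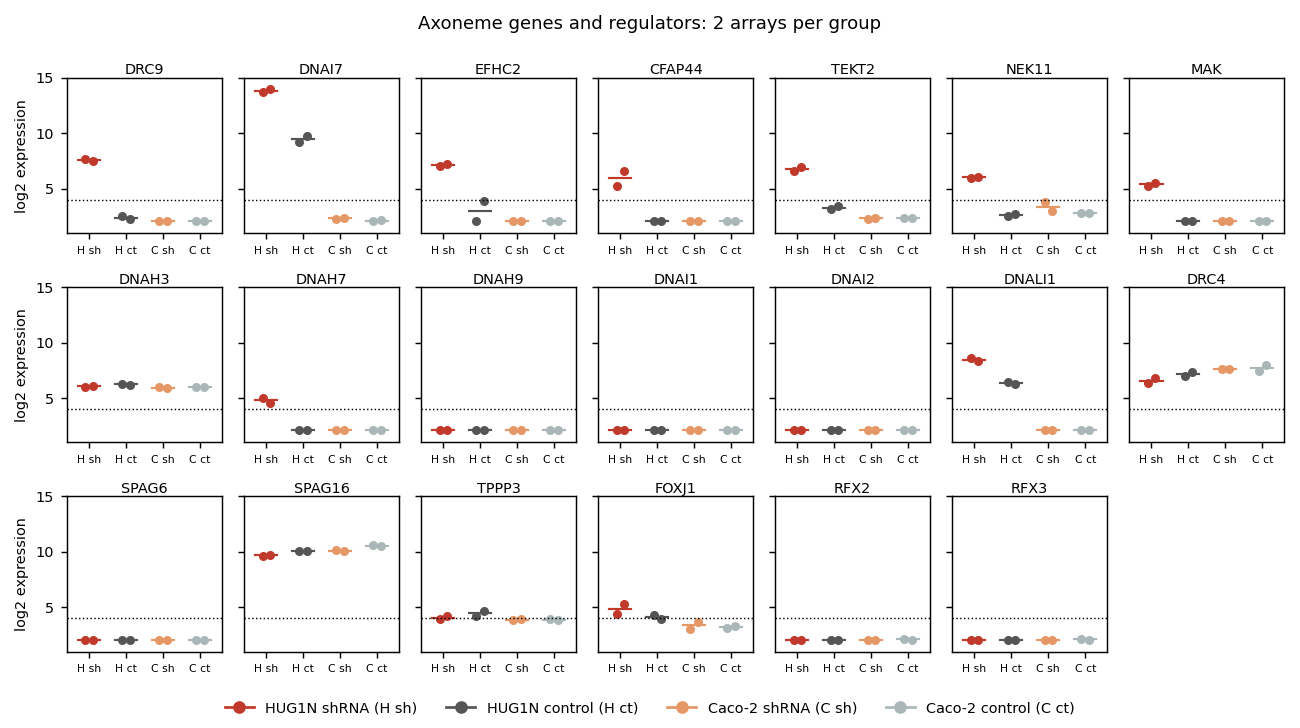
Log2 expression (y axis) of the 15 axoneme genes and 5 regulators in each array, in the groups HUG1N shRNA (H sh), HUG1N control (H ct), Caco-2 shRNA (C sh) and Caco-2 control (C ct). Points are arrays, short bars are group means and the dotted line is log2 4. DRC9, EFHC2, CFAP44, TEKT2, NEK11, MAK and DNAH7 cross that line in HUG1N shRNA arrays and in no other group, while DNAI7 and DNALI1 are over it in both HUG1N groups.

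Among the regulators, 2 kinases were called higher in HUG1N cells, and the transcription factors were not called or not tested. Both kinases passed the filter only through the HUG1N shRNA arrays. NEK11, a NIMA-family kinase known from the DNA damage checkpoint, had 5.98 and 6.08 in HUG1N shRNA cells, against 2.54 and 2.71 in HUG1N control cells, at least 4.08-fold higher. MAK, a kinase that limits cilium length in mouse photoreceptors, had 5.29 and 5.53 in HUG1N shRNA cells and 2.08 in the other arrays, at least 2.66-fold higher. FOXJ1 had 4.44 and 5.30 in HUG1N shRNA cells, against 4.35 and 3.92 in HUG1N control cells, a difference of 0.74 (SE 0.34) that was not called. The FOXJ1 arrays of the HUG1N groups did not overlap, but the nearest of them almost met. Of all 7696 tested genes, 2877 were higher and 2867 lower without overlap between these groups. Without HUG1N shRNA replicate 1 the FOXJ1 difference was 1.17 and was called, and without HUG1N shRNA replicate 2 it was 0.30 and was not. RFX2 and RFX3 stayed at or below 2.17 in every array, so the array gives no measure of either. In Caco-2 cells NEK11 had 3.78 and 2.99 with the shRNA, against 2.86 and 2.86 in control cells (0.53, SE 0.24, limma adjusted p = 0.134). Without Caco-2 shRNA replicate 2 NEK11 was called higher there (0.92, limma adjusted p = 0.00472).

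Other measures moved with the HUG1N shRNA arrays as well. The gap between 3′ and 5′ probe sets of ACTB was 3.69 and 3.77 log2 units in HUG1N shRNA arrays, against 2.68 and 2.35 in HUG1N control arrays, and the mean of 18 hybridisation control probe sets was 10.65 and 10.61, against 12.61 and 12.42. In Caco-2 cells the ACTB gap was 1.65 and 1.46 with the shRNA, against 1.91 and 1.94 in control arrays. The part of these differences in the cilium results was not tested, and both HUG1N shRNA arrays shared them. Over all genes, arrays of a group correlated at 0.995 to 0.997, groups of a line at 0.962 to 0.966 and the lines at 0.697 to 0.745.

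Markers of germ cells and of airway secretory cells were mostly at the floor, and no list of ciliated-cell markers apart from the members was used. Of 11 germ cell markers on the array, among them DAZL, DDX4 and PRM1, none was over log2 4 in both arrays of any group, and their log2 summed level was 5.54 in every array. Of 5 airway secretory markers, MUC5B, a gel-forming mucin, was over 4 in both HUG1N shRNA arrays (5.0 and 5.46, at least 2.34-fold higher) and at 2.08 in all other arrays. MUC5B thus passed the filter only through the HUG1N shRNA arrays. The other 4 airway markers on the array were not over 4 in both arrays of any group. All 5 epithelial markers were over 4 in both arrays of every group. Of 10 gastric markers, 5 were over 4 in HUG1N shRNA cells, 6 in HUG1N control cells and 3 in each Caco-2 group, and of 9 intestinal markers 4 in each HUG1N group and 7 in each Caco-2 group. With the shRNA 4 of 5 epithelial markers were called higher and none lower in HUG1N cells, beside 24.7% and 23.9% of all tested genes. Of 6 tested gastric markers 1 was called higher and 3 lower. Of 8 tested intestinal markers 1 was called higher (12.5%) and 2 lower (25%), the lower share being near that of all genes. The part of these changes and of MUC5B-expressing cells in the axoneme values was not tested.

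Transport, membrane, transition zone and basal body genes were mostly expressed in all groups, and their HUG1N values moved in both directions. Of 24 on the array 22 were tested, of which 10 were called higher and 3 lower in HUG1N shRNA cells, beside 24.7% and 23.9% of all tested genes. Among the 11 genes of IFT trains and motors, all 11 were over log2 4 in both HUG1N shRNA arrays and 9 in both arrays of each other group. Of these 11, 4 were called higher (36.4%) and 2 lower (18.2%), which is read beside the same shares of all genes. IFT22 and IFT140, among those called higher, passed the filter only through the HUG1N shRNA arrays. The ACTB and hybridisation control differences given above apply to these values too.

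IFT22, a Rab-like GTPase of the IFT-B complex, was over log2 4 in the HUG1N shRNA arrays alone. It had 5.63 and 5.47 in HUG1N shRNA cells, against 3.15 and 3.29 in HUG1N control cells, at least 2.93-fold higher, and 3.06 to 3.26 in Caco-2 cells. IFT140, a core IFT-A subunit, had 4.82 and 4.46 in HUG1N shRNA cells and 3.74 to 3.76 in all other arrays, at least 1.56-fold higher. IFT52, an IFT-B core subunit, had 9.86 and 9.77 in HUG1N shRNA cells, against 9.0 and 9.07 in HUG1N control cells (0.78, SE 0.07), well away from the floor. KIF3A, a motor subunit of kinesin-2, had 5.55 and 5.44 in HUG1N shRNA cells, against 4.93 and 4.87 in HUG1N control cells (0.59, SE 0.12). Its partner KIF3B, with 9.67 and 9.73 in HUG1N shRNA cells and 9.64 and 9.39 in HUG1N control cells (0.19), was called only without HUG1N control replicate 1 (0.31).

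IFT20, an IFT-B subunit that also sits at the Golgi, moved the other way. It had 11.57 and 11.56 in HUG1N shRNA cells, against 12.93 and 12.92 in HUG1N control cells, a difference of -1.36 (SE 0.09), the lowest of any tested member in this line. WDR19, an IFT-A subunit, was at 6.47 and 6.84 in HUG1N shRNA cells, against 7.15 and 7.03 in HUG1N control cells (-0.43, SE 0.13). The WDR19 call held in 7 of 18 alternative settings, and the difference was -0.25 without HUG1N shRNA replicate 1. IFT57, an IFT-B subunit, stayed between 11.81 and 11.84 in all HUG1N arrays. IFT27, IFT88 and DYNLL1, a dynein light chain shared by many complexes, were not called in HUG1N cells. DYNLL1 was called higher there without the filter or with a trended, robust variance model (0.15 each).

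Of 4 tested BBSome and membrane trafficking genes, 2 were called higher and 1 lower in HUG1N shRNA cells, beside 24.7% and 23.9% of all tested genes. TULP3, an adaptor that brings receptors into the cilium with IFT-A, had 9.81 and 9.71 in HUG1N shRNA cells, against 8.65 and 8.35 in HUG1N control cells (1.27, SE 0.11), and its other probe set differed by 0.39. BBS1, a BBSome subunit, had 9.19 and 9.09 in HUG1N shRNA cells, against 8.64 and 8.53 in HUG1N control cells (0.55, SE 0.09). BBS4, also of the BBSome, had 7.94 and 7.75 in HUG1N shRNA cells, against 8.35 and 8.24 in HUG1N control cells (-0.45, SE 0.10). BBS1 and BBS4, parts of the same complex, were thus called in opposite directions. The BBS4 call was lost on its other probe set (-0.27), without HUG1N control replicate 1 (-0.39) and without HUG1N shRNA replicate 2 (-0.35). ARL3, a GTPase that releases lipidated cargo in the cilium, was not called (0.12, SE 0.08), and BBS9 stayed at or below 2.38 in every array.

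Among 7 tested genes of the transition zone and basal body, 4 were called higher and none lower in HUG1N shRNA cells, beside 24.7% and 23.9% of all tested genes. TCTN1, a tectonic protein of the transition zone, had 6.87 and 6.64 in HUG1N shRNA cells, against 4.65 and 4.82 in HUG1N control cells (2.02, SE 0.11), or 4.04-fold. CETN2, a centrin of the centriole, had 12.16 and 12.05 in HUG1N shRNA cells, against 10.78 and 11.02 in HUG1N control cells (1.2, SE 0.10). Neither gene overlapped between the HUG1N groups, which held upward for 2877 and downward for 2867 of all 7696 tested genes. RPGRIP1L, a scaffold of the transition zone, had 6.45 and 7.54 in HUG1N shRNA cells, against 5.75 and 5.75 in HUG1N control cells (1.24, SE 0.32). The RPGRIP1L difference was 0.69 without HUG1N shRNA replicate 2 and 1.79 without HUG1N shRNA replicate 1, and the call was lost without either HUG1N control array (1.24 each). RPGR, the retinitis pigmentosa GTPase regulator at the same site, had 8.18 and 8.53 in HUG1N shRNA cells, against 7.68 and 7.81 in HUG1N control cells (0.61, SE 0.14), and lost its call without HUG1N control replicate 1 (0.54). CEP290 and OFD1 were not called in HUG1N cells. CETN3 was not called there either (-0.26, SE 0.10). It was called lower with median centring (-0.29), with a trended, robust variance model or with the HUG1N groups fitted alone (-0.26 each). Leaving out either Caco-2 shRNA array also gave a lower call (-0.26 each). ODF2 lay between 2.59 and 3.74 in all arrays and was not tested.

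Over the whole list 19 of 36 tested members were called higher and 4 lower in HUG1N shRNA cells, with 13 not called, beside 24.7% and 23.9% of all genes. The median log2 difference was 0.60 over the 36 and 0.37 over the 32 without DRC9, DNAI7, EFHC2 and CFAP44, against 0 over all tested genes. Of the 36, 9 passed the filter only through the HUG1N shRNA arrays, so a difference was built into their selection. These were DRC9, EFHC2, CFAP44, TEKT2, NEK11, MAK, DNAH7, IFT22 and IFT140. Of the other 27, 10 were called higher and 4 lower. Since this contrast chose the list, nothing is read from these counts.

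**Figure D2:**
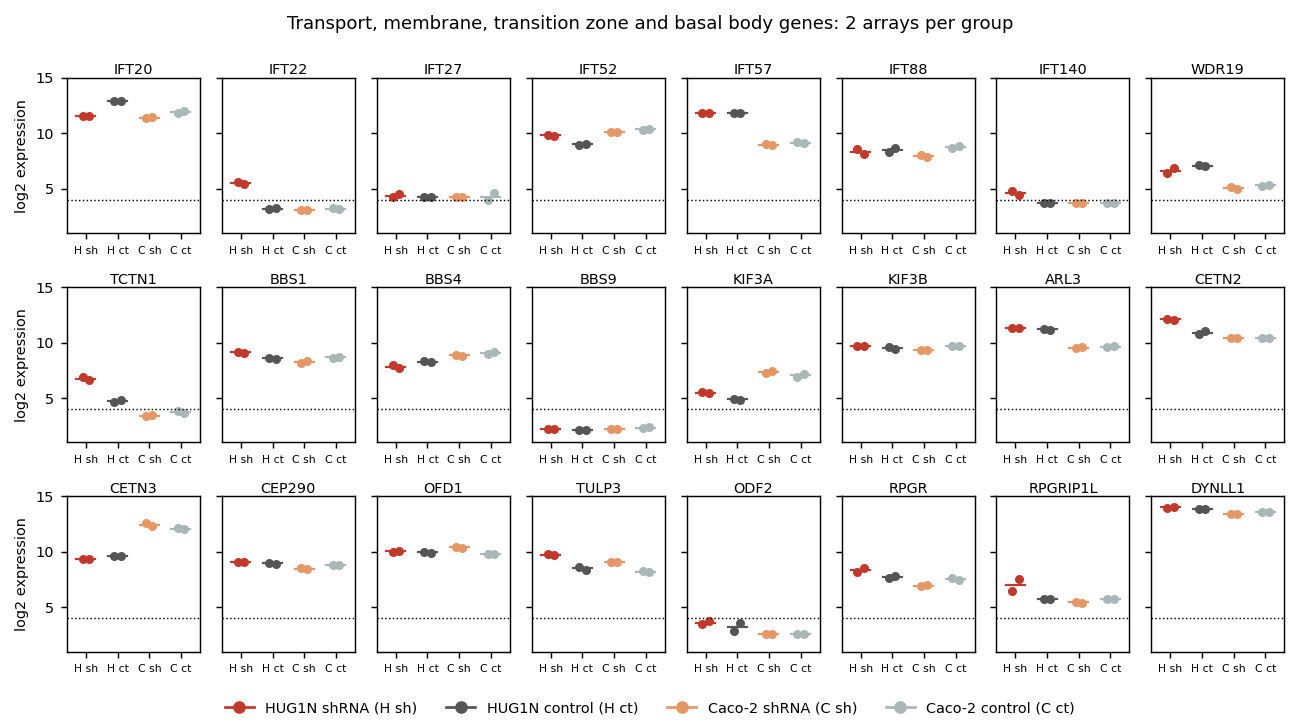
Log2 expression (y axis) of the 24 transport, membrane, transition zone and basal body genes in each array, in the groups HUG1N shRNA (H sh), HUG1N control (H ct), Caco-2 shRNA (C sh) and Caco-2 control (C ct). Points are arrays, short bars are group means and the dotted line is log2 4. Most panels lie over the line in every group. IFT22 and IFT140 cross it in HUG1N shRNA arrays alone, and IFT57, KIF3A and CETN3 differ more between the lines than with the shRNA.

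The list was drawn up around the HUG1N comparison, with results of both lines known. In Caco-2 shRNA cells 3 of 36 tested members were called higher and 9 lower, beside 19.5% of all tested genes called higher and 19.2% called lower. The 36 include the 9 members that passed the filter only through the HUG1N shRNA arrays, which stayed at or below 3.78 in every Caco-2 array. Of the other 27 members, 11.1% were called higher and 33.3% lower, with a median difference of -0.16, against 0 over all genes. The largest called difference among the members in Caco-2 cells was 0.87 on the log2 scale. None of the 7 axoneme genes called higher in HUG1N cells, nor NEK11 or MAK, was called in Caco-2 cells over all 8 arrays, and all of these but NEK11 were at or below 2.36 in every Caco-2 array.

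Intraflagellar transport and motor genes gave 5 of the 9 lower calls in Caco-2 cells, and none of them was called higher. The lower calls were 45.5% of the 11 tested, beside 19.2% of all tested genes called lower and 19.5% called higher. IFT20 had 11.37 and 11.44 in Caco-2 shRNA cells, against 11.80 and 12.01 in Caco-2 control cells, a difference of -0.50 (SE 0.09, limma adjusted p = 0.00558). IFT88, an IFT-B subunit whose loss blocks cilium assembly, had 8.06 and 7.88 in Caco-2 shRNA cells, against 8.67 and 8.84 in Caco-2 control cells, a difference of -0.79 (SE 0.19, limma adjusted p = 0.0186). Both were separated from the control arrays by more than their own spread. KIF3B (-0.32, SE 0.09, limma adjusted p = 0.0369), IFT52 (-0.24, SE 0.07, limma adjusted p = 0.0436) and DYNLL1 (-0.20, SE 0.06, limma adjusted p = 0.0475) passed more narrowly. IFT57 (-0.16, SE 0.06) and WDR19 (-0.24, SE 0.13) had the same sign and did not pass, with limma adjusted p of 0.0899 and 0.191.

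SPAG16 was the axoneme gene called in Caco-2 cells. It had 10.16 and 10.04 in Caco-2 shRNA cells, against 10.58 and 10.53 in Caco-2 control cells (-0.46, SE 0.07, limma adjusted p = 0.00435). SPAG16 was thus called lower in both lines, as IFT20 was. BBS1 had 8.13 and 8.30 in Caco-2 shRNA cells, against 8.65 and 8.68 in Caco-2 control cells (-0.45, SE 0.09, limma adjusted p = 0.00952). TULP3 had 9.04 and 9.12 in Caco-2 shRNA cells, against 8.24 and 8.18 in Caco-2 control cells (0.87, SE 0.11, limma adjusted p = 0.00187), and its other probe set differed by 0.81. TULP3 was the member called higher in both lines.

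Genes of the transition zone and basal body were split in Caco-2 cells, with 2 of 7 tested called higher (28.6%) and 2 lower (28.6%). Of all tested genes 19.5% were called higher and 19.2% lower. OFD1, which caps the distal end of centrioles, had 10.41 and 10.38 in Caco-2 shRNA cells, against 9.78 and 9.82 in Caco-2 control cells (0.59, SE 0.07, limma adjusted p = 0.00143). CETN3, another centrin, had 12.59 and 12.33 in Caco-2 shRNA cells, against 12.11 and 12.09 in Caco-2 control cells (0.36, SE 0.10, limma adjusted p = 0.0313). RPGR had 6.89 and 7.02 in Caco-2 shRNA cells, against 7.66 and 7.46 in Caco-2 control cells (-0.61, SE 0.14, limma adjusted p = 0.016). CEP290, which links the transition zone membrane to the microtubules, had 8.52 and 8.43 in Caco-2 shRNA cells, against 8.81 and 8.83 in Caco-2 control cells (-0.34, SE 0.07, limma adjusted p = 0.0104), and its other probe set differed by -0.49. In each of these genes the Caco-2 groups did not overlap, which held upward for 2769 and downward for 2887 of all 7696 tested genes.

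IFT52, BBS1 and RPGR were called in opposite directions in the lines, higher in HUG1N shRNA cells and lower in Caco-2 shRNA cells. The difference between the shRNA effects, HUG1N minus Caco-2, was 1.01 (SE 0.10) for IFT52, 1.0 (SE 0.12) for BBS1 and 1.22 (SE 0.19) for RPGR, and it was called for each, beside 22.2% of all tested genes called higher and 22.7% lower for that difference. No p is given, as the HUG1N effect is part of it. DNAH3, DRC4, TPPP3, FOXJ1, IFT27, IFT57 and ARL3 were called in neither line in the main fit of all 8 arrays. Among the alternatives with all arrays kept, DNAH3 was called lower in HUG1N cells without the filter (-0.20) or with median centring (-0.23). IFT57 was called lower in Caco-2 cells without the filter (-0.16, limma adjusted p = 0.0157). The DRC4 and TPPP3 calls under alternatives are given above.

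Several Caco-2 calls rested on individual arrays. The number of members called lower was 4 without Caco-2 control replicate 1, 3 without control replicate 2, 4 without shRNA replicate 1 and 5 without shRNA replicate 2, while the share of all genes called lower was 12.4%, 11.4%, 13.7% and 13.7%. Without each of those arrays in that order, IFT88 differed by -0.87, -0.70, -0.87 and -0.70, DYNLL1 by -0.20, -0.20, -0.18 and -0.22, IFT52 by -0.28, -0.19, -0.23 and -0.25, and KIF3B by -0.33, -0.32, -0.31 and -0.34, none of them called. RPGR lost its call without control replicate 1 (-0.51) or shRNA replicate 1 (-0.55), and BBS1 (-0.43) and CEP290 (-0.33) lost theirs without control replicate 2. CETN3 lost its call without control replicate 1 (0.37), control replicate 2 (0.35) or shRNA replicate 1 (0.22). TULP3, OFD1, IFT20 and SPAG16 were called in the same direction in all 18 alternative settings, which leave out the 2-fold minimum. None of these genes was called in Caco-2 cells with that minimum. LUM, a fibroblast marker, had 7.45 and 7.62 in Caco-2 shRNA cells, against 3.52 and 3.33 in Caco-2 control cells, COL1A1 was not called, and the other 7 fibroblast markers on the array were not over log2 4 in enough arrays to be tested. Of 8 immune markers on the array, LYZ, a lysozyme that stomach and gut epithelium also make, had 7.65 and 7.39 in Caco-2 shRNA cells, against 9.68 and 9.27 in Caco-2 control cells, and CD14 was over 4 in Caco-2 control cells alone. Marker counts in Caco-2 cells are read beside 19.5% of all tested genes called higher and 19.2% called lower. Among 6 tested gastric markers 2 were called lower and none higher in Caco-2 shRNA cells, with a log2 summed level of 8.57 to 8.78, against 11.89 to 11.97 in Caco-2 control cells. Of 8 tested intestinal markers 4 were called lower and none higher (14.38 to 14.43 in Caco-2 shRNA cells, against 15.57 to 15.61 in Caco-2 control cells), and of 5 epithelial markers 3 were called higher and none lower (17.27 to 17.31 in Caco-2 shRNA cells, against 16.44 to 16.48 in Caco-2 control cells). The part of these changes and of other cell types in the Caco-2 values was not tested.

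**Figure D3:**
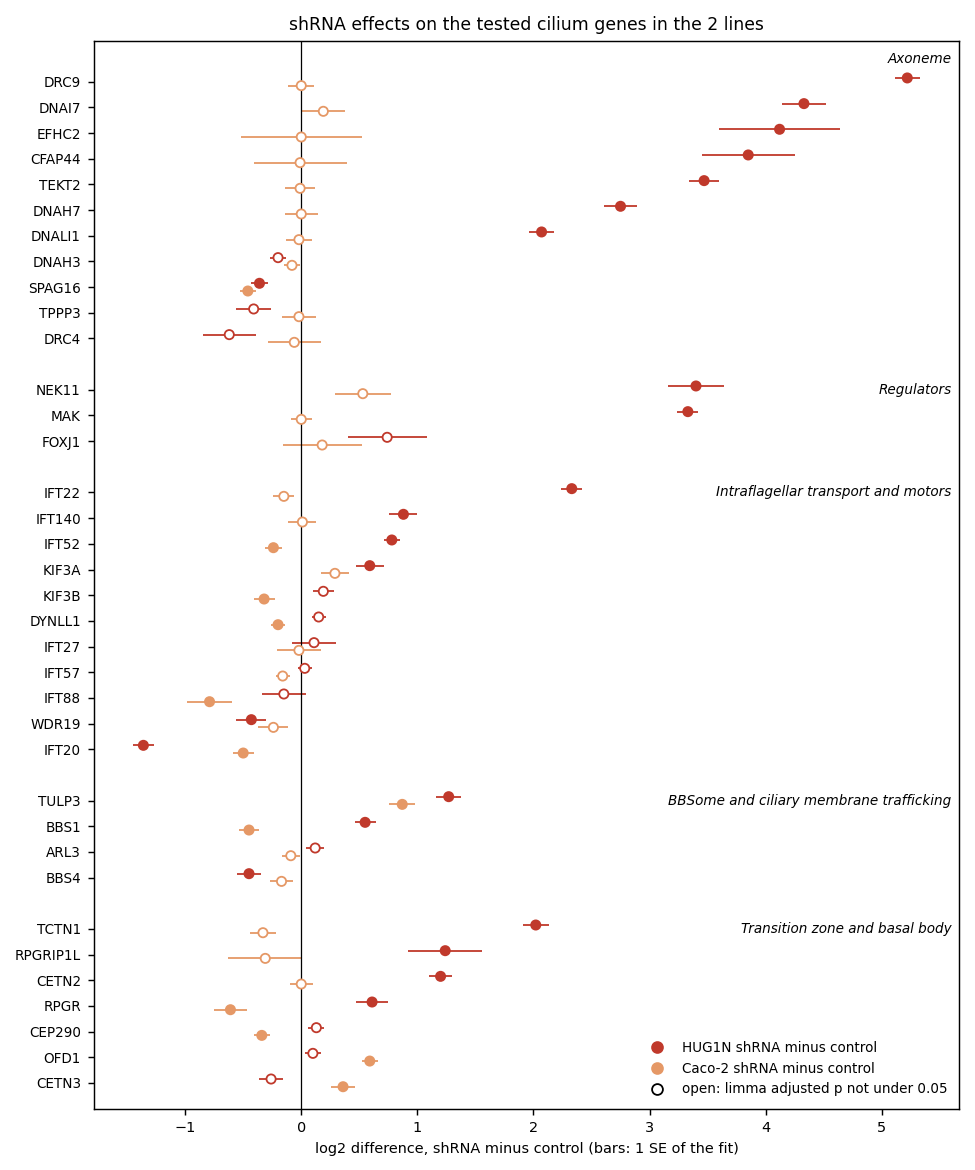
Log2 differences, shRNA minus control (x axis), of the 36 tested members, grouped by class, in HUG1N cells (red) and Caco-2 cells (orange). Bars are 1 SE of the limma fit, and open points are differences with an adjusted p not under 0.05. HUG1N axoneme points reach 5.22 (DRC9), whereas Caco-2 points lie between -0.79 (IFT88) and 0.87 (TULP3).

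Levels without the shRNA differed between the lines for many genes, so the member counts are read beside a high background. In HUG1N control cells 14 of 36 tested members were called higher and 5 lower than in Caco-2 control cells, beside 37.1% of all tested genes called higher and 41.3% called lower. This comparison uses the same control arrays as the shRNA comparisons. The members' median difference was 0.15, against -0.05 over all genes. All values in this comparison are for the same probe set in the lines.

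DNAI7 had the widest gap, at 9.22 and 9.78 in HUG1N control cells, against 2.14 and 2.15 in Caco-2 control cells (7.36, SE 0.19, limma adjusted p = 3.08e-07), at least 45.4-fold higher. DNALI1 had 6.45 and 6.28 in HUG1N control cells, against 2.12 and 2.08 in Caco-2 control cells (4.27, SE 0.11, limma adjusted p = 3.07e-07), at least 5.15-fold higher. An axonemal dynein chain pair was thus measured in HUG1N cells without any shRNA and was at the floor in Caco-2 cells. TPPP3 (0.57, SE 0.15) and DNAH3 (0.23, SE 0.07) were also called higher in HUG1N control cells, with limma adjusted p of 0.0111 and 0.0218. The TPPP3 call was lost without Caco-2 control replicate 2 (0.55), and the DNAH3 call without Caco-2 control replicate 1 (0.23), Caco-2 control replicate 2 (0.23) or HUG1N control replicate 1 (0.21). DRC9 and TEKT2 passed the test as well, but every control array of both lines was under 4 for them, so no fold is given. FOXJ1 had 4.35 and 3.92 in HUG1N control cells, against 3.10 and 3.31 in Caco-2 control cells (0.93, SE 0.34, limma adjusted p = 0.0434), a call lost when any 1 of the 4 control arrays was left out (0.72 to 1.14).

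Transport genes differed between the lines in both directions. IFT57 had 11.81 and 11.82 in HUG1N control cells, against 9.20 and 9.13 in Caco-2 control cells (2.65, SE 0.06, limma adjusted p = 2.23e-07), or 6.28-fold higher. WDR19 had 7.15 and 7.03 in HUG1N control cells, against 5.30 and 5.35 in Caco-2 control cells (1.76, SE 0.13, limma adjusted p = 2.62e-05). ARL3 had 11.23 and 11.17 in HUG1N control cells, against 9.59 and 9.69 in Caco-2 control cells (1.56, SE 0.08, limma adjusted p = 4.19e-06). IFT57 and ARL3 were the members with a wide gap between the lines that were called with the shRNA in neither in the main fit. IFT20 (1.02), TCTN1 (1.0), CETN2 (0.47) and DYNLL1 (0.24) were also called higher in HUG1N control cells.

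KIF3A and CETN3 led in the other direction. KIF3A had 4.93 and 4.87 in HUG1N control cells, against 6.93 and 7.21 in Caco-2 control cells (-2.17, SE 0.12, limma adjusted p = 8.04e-06). CETN3 had 9.67 and 9.59 in HUG1N control cells, against 12.11 and 12.09 in Caco-2 control cells (-2.47, SE 0.10, limma adjusted p = 1.76e-06), while the related CETN2 was slightly higher in HUG1N control cells. IFT52 had 9.0 and 9.07 in HUG1N control cells, against 10.32 and 10.41 in Caco-2 control cells (-1.32, SE 0.07, limma adjusted p = 6.8e-06). BBS4 (-0.75) and SPAG16 (-0.50) completed the members called lower, with limma adjusted p of 0.000537 and 0.000813.

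Other genes of the cilium, outside the list, were counted in the same fits. Of 35 other axoneme genes on the array 10 were tested, and 4 were called higher (40%) and none lower in HUG1N shRNA cells. Shares of all the outside lists are read beside 24.7% higher and 23.9% lower over all genes in HUG1N cells, and 19.5% and 19.2% in Caco-2 cells. SPA17, a sperm protein that binds kinase anchoring proteins, had 8.55 and 8.45 in HUG1N shRNA cells, against 6.66 and 6.60 in HUG1N control cells (1.87, SE 0.07). SPAG1, a factor for dynein arm assembly, had 12.43 and 12.45 in HUG1N shRNA cells, against 11.07 and 11.11 in HUG1N control cells (1.34, SE 0.11). MNS1, a protein inside the axonemal microtubules (1.34, SE 0.24), and DNAAF2, a dynein assembly factor (0.74, SE 0.10), were the other ones. In Caco-2 shRNA cells DNAAF2 (-0.38, limma adjusted p = 0.0308) and DNAAF5, also an assembly factor (-0.36, limma adjusted p = 0.0347), were called lower and none higher. DNAAF2 was thus called in opposite directions in the lines.

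Of 65 further transport, BBSome and basal body genes 50 were tested, and 17 were called higher (34%) and 8 lower (16%) in HUG1N shRNA cells. KIFAP3, the accessory subunit of kinesin-2, had 7.20 and 7.23 in HUG1N shRNA cells, against 5.74 and 5.45 in HUG1N control cells (1.62, SE 0.11). IFT81, an IFT-B subunit that binds tubulin, had 9.25 and 9.32 in HUG1N shRNA cells, against 7.37 and 7.88 in HUG1N control cells (1.66, SE 0.17). DYNC2LI1, of the dynein that powers return transport (1.07, SE 0.14), and TMEM231, of the transition zone (0.98, SE 0.12), were also called higher. In Caco-2 shRNA cells 4 of the 50 were called higher (8%) and 10 lower (20%), the lower share being near the 19.2% of all genes. MKKS, a chaperonin-like protein of BBSome assembly, averaged 9.23 ± 0.02 in Caco-2 shRNA cells and 10.09 ± 0.12 in Caco-2 control cells (SD, n = 2 each; difference -0.86, SE 0.14, limma adjusted p = 0.00453). IFT25, of the IFT-B complex (-0.47, limma adjusted p = 0.00636), and BBIP1, of the BBSome (-0.40, limma adjusted p = 0.0115), were lower too, while RAB11A, a recycling endosome GTPase, was higher (0.37, limma adjusted p = 0.00532).

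Ciliogenesis factors included a kinase related to MAK. Of 13 tested, 6 were called higher (46.2%) and 2 lower (15.4%) in HUG1N shRNA cells. MOK, that kinase, had 4.87 and 4.90 in HUG1N shRNA cells, against 2.56 and 2.56 in HUG1N control cells, at least 1.85-fold higher, and 2.29 to 2.56 in Caco-2 cells. MOK is among the 6 called higher, but it passed the filter only through the HUG1N shRNA arrays, so a difference was built into its selection. MYB, a transcription factor active early in multiciliated cells (0.79, SE 0.10), and CEP63, a centriole duplication protein (0.66, SE 0.10), were higher, and RFX5, the RFX factor best known for MHC class II genes, was lower (-1.18, SE 0.11). In Caco-2 shRNA cells 1 of the 13 was called higher (7.69%) and 6 lower (46.2%). CEP63 was the gene called higher (0.96, limma adjusted p = 0.000741), and E2F5 (-0.65, limma adjusted p = 0.00267), RFX5 (-0.66, limma adjusted p = 0.00526) and RFX7 (-0.65, limma adjusted p = 0.0166) were among those called lower. RFX5 was thus called lower, and CEP63 higher, in both lines.

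Brakes on cilium assembly, 8 of which were tested, gave 1 higher (12.5%) and 3 lower (37.5%) calls in HUG1N shRNA cells. HDAC6, a tubulin deacetylase, had 6.87 and 6.61 in HUG1N shRNA cells, against 7.41 and 7.70 in HUG1N control cells (-0.81, SE 0.16). PLK1 (-0.74, SE 0.17) and NEK2 (-0.32, SE 0.09), mitotic kinases, were also lower, and KIF2A, a microtubule-depolymerising kinesin, was higher (0.38, SE 0.12). In Caco-2 shRNA cells NEDD9, a scaffold of Aurora A kinase, was called higher and none lower. It had 8.67 and 8.58 in Caco-2 shRNA cells, against 7.43 and 7.09 in Caco-2 control cells (1.36, SE 0.27, limma adjusted p = 0.0107).

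Hedgehog signalling in vertebrates passes through the primary cilium, and 5 of its 13 genes on the array were tested, too few for a share to be set against that of all genes. GPR161, a ciliary receptor that holds the pathway back and is brought into the cilium by TULP3, had 5.29 and 5.01 in Caco-2 shRNA cells, against 7.84 and 7.82 in Caco-2 control cells (-2.68, SE 0.18, limma adjusted p = 0.000144). Its Caco-2 difference was larger than that of any member of the list in that line. SPOP, a ubiquitin ligase adaptor for GLI proteins (-0.52, limma adjusted p = 0.00926), and IHH, a ligand (-0.71, limma adjusted p = 0.0449), were lower as well. PTCH1, the receptor and a target of the pathway, was higher in Caco-2 shRNA cells, with 9.58 and 9.48 against 9.04 and 9.04 in control cells (0.49, limma adjusted p = 0.0372). In HUG1N shRNA cells PTCH1 had 8.04 and 8.37, against 7.5 and 7.20 in HUG1N control cells (0.86, SE 0.14), and it was the pathway gene called there. GPR161 lay between 4.04 and 4.55 in the HUG1N arrays and was not called.

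**Figure D4:**
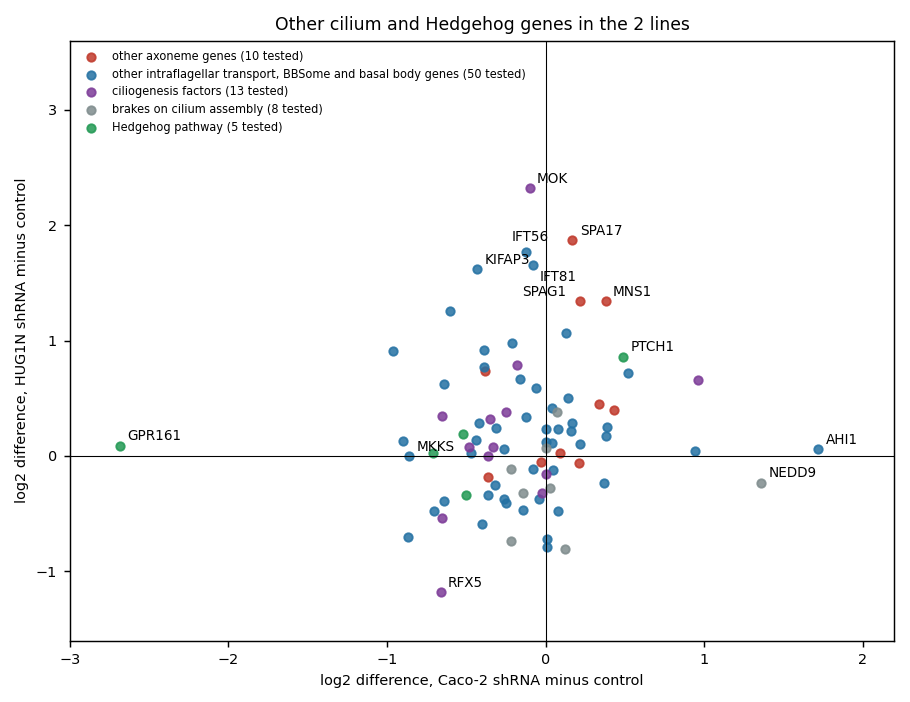
Log2 differences, shRNA minus control, in Caco-2 cells (x axis) and HUG1N cells (y axis) of the tested genes of 5 lists outside the members, with 1 point per gene and some of the outlying genes named. MOK (2.32) and SPA17 (1.87) lie highest on the HUG1N axis, and GPR161 (-2.68) lies far out on the Caco-2 axis with a HUG1N difference near 0. MOK passed the filter only through the HUG1N shRNA arrays.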

How the data were processed

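Each deposited value is the log2 expression of a probe set in an array. Per the submitters' processing notes the authors used GCRMA, whose version is not given in the sources used here. GCRMA corrects background, equalises the arrays' distributions and summarises probes, and it leaves many values at the floor of 2.08 (28.7 to 29.9% of each array's probe sets). Array medians ran from 4.73 to 4.98, so no further scaling was applied.

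Of 22277 probe sets, 19070 had 1 gene symbol in the platform annotation, 1043 had several and 2164 had none here. Symbols were updated by Entrez identifier for 19058. The brightest probe set over 8 arrays stood for each of 11963 genes, and 7696 with log2 over 4 in at least 2 arrays were tested. Among the members, 33 had 1 probe set and 11 had several.

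Group means were fitted with limma 3.58.1 in R 4.3.3 (lmFit, eBayes; prior df 2.17), with Benjamini-Hochberg adjustment over the 7696 genes. A call is an adjusted p under 0.05. The spread of a gene was estimated jointly from all 8 arrays (residual df 4). Where no array of the dimmer group exceeded 4, a fold is a bound, the brighter mean against 4, with no allowance for spread. The fit was also run on simulated arrays with known changes, and that outcome is not reported here. With 2 arrays per group, precision is limited by their number.

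The members, the gene lists and the marker lists (epithelial, intestinal, gastric, airway secretory, germ cell, fibroblast and immune) were chosen with earlier results of these data known. Values of every array are given for DRC9, DNAI7, EFHC2, CFAP44 and up to 8 called members with the largest differences per comparison, and for others chosen after their values were seen. Up to 4 genes per other list were named by smallest p in each comparison. Alternatives covered the low-value filter, floor, normalization, probe set choice, variance model, arrays in the fit, replicate number, 2-fold minimum and each array left out. Promoters are from RefSeq (GRCh38.p14), and no promoter was matched for TEKT2, DNAH3, TPPP3, FOXJ1, RFX2, IFT22, BBS9 and CETN3.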

Additional observations from a re-analysis of the deposited data

Results flagged for a closer look

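For 23 of 36 tested members the shRNA effect in HUG1N cells differed from that in Caco-2 cells by the limma test of the difference itself, 20 upward and 3 downward, beside 22.2% and 22.7% of all tested genes. The HUG1N effect that chose the list is part of each value, so these are descriptions. Among axoneme genes the difference, HUG1N minus Caco-2 on the log2 scale, was 5.22 for DRC9, 4.14 for DNAI7, 4.12 for EFHC2, 3.86 for CFAP44, 3.48 for TEKT2, 2.75 for DNAH7 and 2.10 for DNALI1. For the kinases it was 3.33 for MAK and 2.88 for NEK11. Among transport genes it was 2.48 for IFT22, 1.01 for IFT52, 0.87 for IFT140, 0.51 for KIF3B, 0.35 for DYNLL1 and -0.86 for IFT20. BBS1 of the BBSome gave 1.0. At the transition zone and basal body it was 2.34 for TCTN1, 1.55 for RPGRIP1L, 1.22 for RPGR, 1.21 for CETN2, 0.48 for CEP290, -0.49 for OFD1 and -0.62 for CETN3.

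The RPGRIP1L call was lost when any 1 of the 4 Caco-2 arrays was left out (1.53 to 1.57) and without either HUG1N control array (1.55 each). The KIF3B call was lost when any 1 of the 4 Caco-2 arrays was left out (0.50 to 0.52) or without HUG1N shRNA replicate 2 (0.48). The DYNLL1 call was lost without Caco-2 control replicate 1 (0.35), Caco-2 control replicate 2 (0.35) or Caco-2 shRNA replicate 1 (0.33). Groups of 2 arrays were too small for a search for arrays far from the others.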

How the results depend on the processing

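A set of 34 differences was followed under every alternative but the 2-fold minimum. Of their 596 values, 576 kept direction and side of the threshold. Another 18 lost the call, 2 gained it and none changed direction. Apart from GATA6, the 34 were chosen as the largest called differences per comparison, and they include the HUG1N effects that chose the list. All 18 lost calls were in the Caco-2 shRNA comparison, for IFT88, RPGR, BBS1, CETN3 and GATA6. Outside those 34, the Caco-2 calls of IFT52, DYNLL1 and KIF3B held in 8, 9 and 10 of 18 alternatives, and the HUG1N calls of WDR19, RPGRIP1L, BBS4 and RPGR in 7, 14, 15 and 16 of 18. With a minimum of 2-fold, members called higher and lower became 0 and 0 in Caco-2 shRNA cells (3 and 9 without the minimum), beside 5.3% and 4.34% of all tested genes. In HUG1N shRNA cells 7 axoneme genes, 2 regulators and 5 other members were called higher and 1 lower (19 and 4 without the minimum), beside 5.2% and 6.54%. For the difference between the effects 7 axoneme genes, 2 regulators and 7 other members stayed called higher and 0 lower. These stand beside 8.23% and 10% of all tested genes, and were 20 and 3 without the minimum. Between the control groups the counts became 6 and 3 (14 and 5 without the minimum), beside 22.1% and 23.9%. The smaller differences of the list lie under that minimum by construction. Leaving out each array in turn gave 2 to 4 higher and 3 to 9 lower in Caco-2 cells, 18 to 20 and 3 to 4 in HUG1N cells, 17 to 20 and 3 for the difference between the effects, and 10 to 14 and 5 to 6 between the control groups. Those leave-one-out counts are not set here against the shares of all genes, which also moved with the array left out, so nothing is read from them. Values near the floor limit DRC9 and TEKT2 between the lines, where setting values under log2 4 to 4 gave a difference of 0 for each. GATA6 in HUG1N cells was called with a trended, robust variance model (adjusted p = 0.0346).

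Replicate numbers did not pair the arrays: deviations of same-numbered arrays correlated at -0.06 to 0.07. With the replicate block, members called higher and lower were 3 and 6 in Caco-2 cells (beside 18.1% and 17.4% of all tested genes) and 19 and 5 in HUG1N cells (beside 23.5% and 23.4%). They were 20 and 3 for the difference between the effects (beside 20.9% and 21.2%) and 14 and 6 between the control groups (beside 36.9% and 40.7%). GATA6 in HUG1N cells was called with the block (limma adjusted p = 0.0468).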
